A study of Mus musculus with 6 samples.

Results

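The subject here was the set of secreted enzymes with which the pancreas digests fat, namely Pnlip, Pnliprp1, Pnliprp2, Cel, Clps and Pla2g1b. The 6 genes were chosen by name, from 55414 gene identifiers in the count tables, and all 6 were found by their Ensembl identifiers and had enough counts to be tested. They were followed in bulk messenger RNA sequencing of 6 preparations of pancreatic acinar cells, which make and secrete digestive enzymes, from adult mice that received no treatment. The 3 control preparations carried Pdx1Cre;Trip12+/+, and the 3 knockout preparations carried Pdx1Cre;Trip12fl/fl, so that the Cre recombinase was present in both groups. Pdx1 is active in the progenitors of the whole pancreas, and its promoter therefore directs Cre to duct and islet cells as well as to acinar cells. TRIP12 is an E3 ubiquitin ligase. Strain, age in weeks and the way acinar cells were prepared are not given in the labels, and the labels number the preparations as biological replicates 1 to 3 in each group without saying what a number stands for.

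Dietary fat reaches the intestine as triglyceride droplets coated with phospholipid and bile salts. Pancreatic triglyceride lipase, the product of Pnlip, splits most of this triglyceride, but bile salts displace it from the droplet surface unless colipase, the product of Clps, anchors it there. Pnliprp1 and Pnliprp2 are its relatives, of which the first has little or no known lipase activity and the second also splits galactolipids and phospholipids and is known from the digestion of milk fat. Cel, the bile salt-dependent lipase, accepts cholesteryl and retinyl esters besides triglycerides. Pla2g1b, a secreted phospholipase A2, removes a fatty acid from phospholipids. Colipase and phospholipase A2 leave the cell as proforms that trypsin activates in the gut.

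Because Pnlip, Pnliprp1 and Pnliprp2 descend from a common ancestor, their transcripts were compared first, to see whether reads of one could be counted to another. In the GENCODE M21 transcripts, the coding sequences of Pnlip (1398 bases) and Pnliprp1 (1422 bases) were identical at 69.0% of aligned positions. Pnlip and Pnliprp2 (1449 bases) were identical at 68.7%, and Pnliprp1 and Pnliprp2 at 66.4%. The longest stretches shared without a mismatch were 23, 20 and 19 bases in these 3 pairs. The 90 coding bases that were most alike in all 3 genes are shown because they are where a misplaced read would be most likely. Capitals mark the bases that differ from Pnlip. Of the 90 positions, 69 were identical in all 3, Pnliprp1 differed from Pnlip at 14 and Pnliprp2 at 16.
Pnlip, coding bases 266 to 355: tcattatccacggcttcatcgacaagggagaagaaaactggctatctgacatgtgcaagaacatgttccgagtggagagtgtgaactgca
Pnliprp1, coding bases 272 to 361: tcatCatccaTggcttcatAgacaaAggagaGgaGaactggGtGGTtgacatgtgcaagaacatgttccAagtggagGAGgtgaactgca
Pnliprp2, coding bases 311 to 400: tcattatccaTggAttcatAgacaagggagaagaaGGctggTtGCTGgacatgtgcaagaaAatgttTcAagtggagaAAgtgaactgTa
None of the 50-base windows of the 6 main transcripts (1438 windows in Pnlip, 1570 in Pnliprp1, 1523 in Pnliprp2, 2014 in Cel, 562 in Clps and 508 in Pla2g1b) occurred in an annotated transcript of any other gene, on either strand. Cel overlaps the antisense gene Gm13381 and Clps holds the microRNA gene Mir6969 in the GRCm38 annotation. The counts of the 2 strand columns summed to 1.00 times the unstranded count for each of the 6 genes in each library, so the overlap with Gm13381 cost Cel almost no reads. Mir6969 lies on the same strand as Clps, so this sum cannot show whether Clps lost reads to that overlap.

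The sequences before the start sites of 5 of the 6 genes were found in the RefSeq promoter table, and 2 are shown because they belong to the 2 lipases with the most reads and differ most in what they hold. The 250 bases before each start were searched on both strands for CACCTG (an E-box of the kind bound by PTF1), TTTCCC (the other part of a PTF1 site), AAGGTCA (a site of the kind bound by NR5A2) and TATAAA. Matches are in capitals, and a match is a description of letters and not evidence of binding.
Pnlip, RefSeq GRCm38.p6, plus strand, chr19:58670115-58670364: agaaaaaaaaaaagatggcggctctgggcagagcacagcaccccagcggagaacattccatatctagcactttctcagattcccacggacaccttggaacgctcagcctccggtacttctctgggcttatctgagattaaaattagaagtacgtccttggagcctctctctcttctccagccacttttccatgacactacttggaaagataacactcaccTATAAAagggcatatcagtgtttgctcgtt
Cel, RefSeq GRCm38.p6, minus strand, chr2:28563404-28563653: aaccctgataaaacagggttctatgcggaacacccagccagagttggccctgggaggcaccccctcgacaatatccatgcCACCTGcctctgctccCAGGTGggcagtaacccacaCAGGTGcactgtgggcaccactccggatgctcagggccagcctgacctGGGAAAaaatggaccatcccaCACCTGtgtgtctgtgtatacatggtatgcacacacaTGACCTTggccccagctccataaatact
Cel held 6 matches to 3 of the 4 motifs, and Pnlip a single TATAAA that began 30 bases before the start. Pnliprp2 held 1 CACCTG, 228 bases before its start, and Pnliprp1 and Pla2g1b held no match in this window. Of 32536 different promoter windows of the same length, 17.3% held CACCTG, 22.0% TTTCCC, 4.09% AAGGTCA and 12.3% TATAAA, each on either strand.

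The libraries held between 31019500 and 34041901 gene counts. Secreted digestive enzymes and their companions other than the 6 genes took 55.3% to 59.5% of the gene counts of every library, so the defining messages of acinar cells were present. Trip12 had a control mean of 25.9 CPM ± 3.36 (SD, n = 3) and a knockout mean of 14.03 CPM ± 0.917, and was called lower (log2 fold change -0.89, SE 0.14, adjusted p 0.0256, by the quasi-likelihood test of edgeR with p-values adjusted over all tested genes by Benjamini-Hochberg). CPM are counts brought to a common library size, here with TMM factors, a scaling that takes most genes to be equal between libraries. Xist reached 2118 and 2440 counts in controls 2 and 3, while the other libraries held 3 to 5. Sex and genotype are thus partly confounded, and control replicate 1 is the only control of the knockouts' sex. Multimapped reads, which were counted to no gene, had a mean share of 27.2% ± 1.20 (SD, n = 3) of reads among the controls and 22.7% ± 1.27 among the knockouts. The labels call the preparations biological replicates without naming animals, and by the Xist counts the controls did not all come from 1 animal. The p-values measure the spread between these preparations.

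The 6 genes were among the most abundant messages of the cells. Together they made up 17.7%, 19.3% and 19.0% of gene counts in the controls, and 17.4%, 17.9% and 18.5% in the knockouts. The groups overlapped, with means of 18.7% ± 0.849 (SD, n = 3) in control and 18.0% ± 0.584 in knockout. Counting error was far smaller, and for control replicate 1 the 95% interval (Clopper-Pearson) was 17.70% to 17.73%. Of the counts of all 33 secreted digestive genes, the 6 took 24.1% ± 0.713 (SD, n = 3) in control and 24.4% ± 0.792 in knockout. Multimapped reads, on average 27.2% of reads in control and 22.7% in knockout, were counted to no gene and are missing from these shares. How many of them came from other digestive genes, such as near-identical trypsinogens, was not tested, so the shares of the 6 may be too high.

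Levels were compared between genes per kilobase of the longest protein-coding transcript. In control Pnlip stood highest at 60973 CPM per kb ± 12110 (SD, n = 3), the fifth highest of 13095 genes ranked. This rank also leaves out multimapped reads, so genes with near-identical copies may stand too low in it. Clps followed at 49863 ± 11021 CPM per kb, then Cel at 27219 ± 3782, Pnliprp1 at 21183 ± 5940, Pnliprp2 at 3633 ± 506 and Pla2g1b at 2375 ± 373. The ranges of Pnlip and Clps overlapped between libraries, as did those of Cel and Pnliprp1, although Pnlip was above Clps and Cel above Pnliprp1 within each of the 3 controls. The order of the first 2 turned round when all annotated exons were counted as length, with 41306 ± 8204 CPM per kb for Pnlip and 49863 ± 11021 for Clps. In knockout the order of the means by transcript length was the same, from 42971 ± 5258 CPM per kb (SD, n = 3) for Pnlip to 1688 ± 197 for Pla2g1b, with Clps at 38512 ± 5128. In knockout replicate 2, however, Clps (44292 CPM per kb) stood above Pnlip (39263).

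The question of the comparison was whether the messages of these enzymes differ between the Trip12 knockout and the control preparations. Relative to the bulk of genes, each of the 6 was lower in knockout, at 67.1% to 77.2% of its control mean, where 47.6% of all tested genes had a negative log2 fold change. None of the 6 passed the edgeR test, which called 0.945% of the 13115 tested genes in either direction and 0.48% as lower in knockout. With the replicate number as a block none of the 6 was called either, where 5.99% of genes were called in all and 2.58% as lower. The median log2 fold change was -0.49 over the 6 and 0.02 over all tested genes. At an unadjusted p under 0.05, 5 of the 6 were lower, against 8.27% of all tested genes. In 4 of the 6 every knockout library lay below every control library, against 10.9% of all tested genes. The 6 genes share the same libraries and one scaling, so these counts are not 6 independent observations. In bulk RNA, fewer acinar cells and less of a message per cell cannot be told apart.

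**Figure D1:**
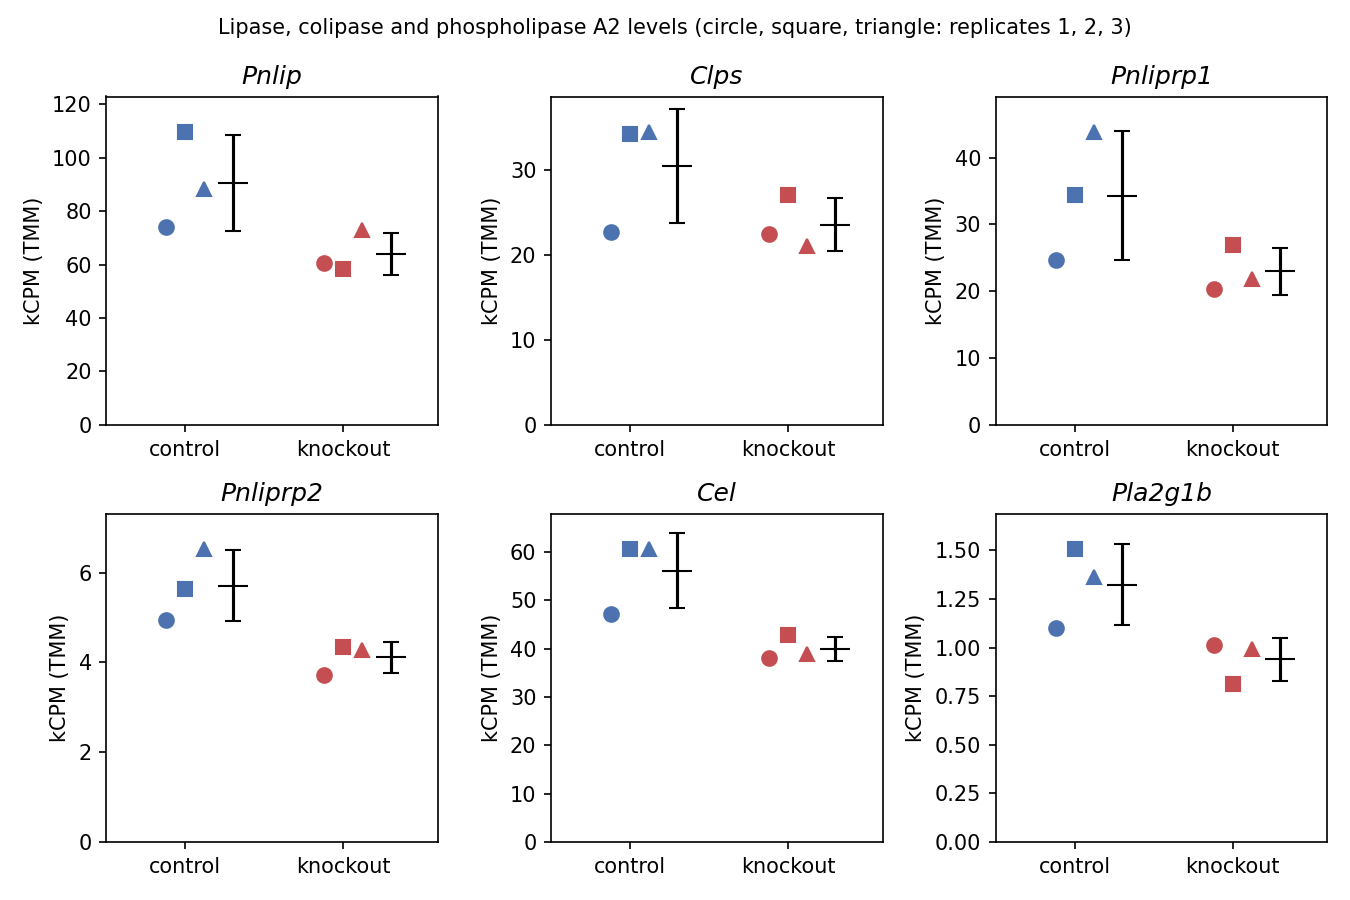
Points are the TMM-scaled levels of each gene (CPM, axis in kCPM) in the 3 control (blue) and 3 knockout (red) preparations, with black bars for the mean and SD (n = 3). Knockout points lie below all control points in Pnlip, Pnliprp2, Cel and Pla2g1b, while in Clps and Pnliprp1 control replicate 1 lies among the knockouts.

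Pnlip, the main triglyceride lipase (ENSMUSG00000046008, chromosome 19), had 73948, 109733 and 88319 CPM in the controls, replicates 1 to 3 in order, against 60463.5, 58384 and 72846 CPM in the knockouts. The groups did not overlap, but the lowest control, replicate 1, stood only 1.51% above the highest knockout. The control mean was 90667 CPM ± 18008 (SD, n = 3), the knockout mean 63898 CPM ± 7819. The log2 fold change was -0.50 (SE 0.20, 95% interval from -0.95 to -0.06), and the adjusted p was 0.254 (quasi-likelihood test of edgeR).

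Clps, colipase (ENSMUSG00000024225, chromosome 17), had 22693, 34226 and 34481 CPM in the controls, against 22444.5, 27062 and 21085 CPM in the knockouts. Control replicate 1 lay within the range of the knockouts, and control replicates 2 and 3 lay above them. With means of 30467 CPM ± 6734 (SD, n = 3) and 23531 CPM ± 3133, Clps had the smallest difference of the 6. Its log2 fold change was -0.37 (SE 0.21, 95% interval from -0.85 to 0.11), and edgeR gave an adjusted p of 0.425. Colipase counts per 100 Pnlip counts, a ratio that does not depend on the scaling of libraries, came to 30.7, 31.2 and 39.0 in the controls, against 37.1, 46.4 and 28.9 in the knockouts.

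Pnliprp1 (ENSMUSG00000042179, chromosome 19), the relative with little known activity, had 24636, 34379.9 and 43868 CPM in the controls, against 20262, 26972 and 21816 CPM in the knockouts. It varied most within the controls, with a coefficient of variation of 28.0%, and control replicate 1 lay below knockout replicate 2. The control mean was 34295 CPM ± 9616 (SD, n = 3), the knockout mean 23017 CPM ± 3513. The log2 fold change was the largest of the 6, at -0.58 (SE 0.23, 95% interval from -1.11 to -0.04), and edgeR gave an adjusted p of 0.267.

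Pnliprp2 (ENSMUSG00000025091, chromosome 19), the lipase known from milk fat digestion, had 4950.4, 5647 and 6537 CPM in the controls, against 3721, 4345 and 4286 CPM in the knockouts. All 3 knockout libraries lay below the lowest control, which stood 13.9% above the highest knockout. The control mean was 5711 CPM ± 795 (SD, n = 3), the knockout mean 4117 CPM ± 344. The log2 fold change was -0.47 (SE 0.17, 95% interval from -0.86 to -0.08), and edgeR gave an adjusted p of 0.227.

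Cel (ENSMUSG00000026818, chromosome 2), the bile salt-dependent lipase, had 47144, 60627 and 60686 CPM in the controls, against 37992, 42809.6 and 38976.5 CPM in the knockouts. The groups did not overlap, and the knockouts were the most alike of any gene of the 6, with a coefficient of variation of 6.38%. The control mean was 56152 CPM ± 7802 (SD, n = 3), the knockout mean 39926 CPM ± 2545. Its edgeR adjusted p, 0.21, was the lowest of the 6, with a log2 fold change of -0.49 (SE 0.17, 95% interval from -0.88 to -0.10). Gm13381, which lies antisense to Cel, had 38.3, 75.5 and 32.5 CPM in the controls, against 46.3, 98.7 and 47.1 CPM in the knockouts, with overlapping groups and an edgeR adjusted p of 0.732.

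Pla2g1b (ENSMUSG00000029522, chromosome 5), the phospholipase A2, was far less abundant, at 1098.5, 1508 and 1361 CPM in the controls, against 1013, 814 and 993 CPM in the knockouts. The groups did not overlap, with control replicate 1 standing 8.39% above knockout replicate 1. The control mean was 1323 CPM ± 208 (SD, n = 3), the knockout mean 940.04 CPM ± 109.8. The log2 fold change was -0.49 (SE 0.19, 95% interval from -0.92 to -0.07), and edgeR gave an adjusted p of 0.238.

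The size of these differences depended on what the libraries were scaled to. With library totals in place of TMM, the log2 fold changes were -0.068 for Pnlip, 0.067 for Clps, -0.14 for Pnliprp1, -0.047 for Pnliprp2, -0.063 for Cel and -0.056 for Pla2g1b, none of them called where 11.6% of genes were called and 0.587% as lower, and the median of all tested genes was 0.43 instead of 0.02. Expressed so, Pnlip took 77526 CPM ± 7669 (SD, n = 3) in the controls against 73923 CPM ± 9713 in knockout, and Cel 48164 CPM ± 773 and 46106 CPM ± 1536. The difference was smaller than the spread between replicates in Pnlip and somewhat larger than either SD in Cel. Set against counts outside the secreted digestive genes, the 6 together came to 74.0, 91.2 and 84.2 counts per 100 in control and 66.5, 67.6 and 70.9 in knockout, with no overlap. The lowest control on this measure was again replicate 1.

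Taken by same-numbered preparations with TMM scaling, each of the 6 genes was lower in knockout in all 3 pairs. In Pnlip, Pnliprp2, Cel and Pla2g1b, whose groups did not overlap, any pairing would give this, so it adds nothing for them. The labels do not state that like numbers are pairs, and the share of all tested genes lower in all 3 was not counted. The log2 differences, knockout minus control, were -0.29, -0.91 and -0.28 in Pnlip and -0.28, -0.35 and -1.01 in Pnliprp1. Colipase ranged from -0.016 in pair 1 to -0.71 in pair 3, so the pair with the largest difference was not the same in Pnlip as in Clps and Pnliprp1. The pattern depended on the scaling. As a share of gene counts, each of the 6 was higher in knockout in at least 1 pair. In pair 3, Pnlip took 7.14% of gene counts in control and 8.44% in knockout.

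The choice of controls moved these values. Without control replicate 1, the control of the knockouts' sex, the log2 fold changes ran from -0.57 in Clps to -0.79 in Pnliprp1. That fit sets controls of one sex by Xist against knockouts of the other, so sex and genotype are fully confounded in it. There edgeR called 2 of the 6, Cel (-0.63, adjusted p 0.0381) and Pnliprp1 (-0.79, adjusted p 0.0457). Of the genes tested without that library, 3.41% were called and 1.88% were called as lower. Without control replicate 2 the value of Pnlip was -0.35, and without control replicate 3 that of Pnliprp1 was -0.36. With sex as a covariate, which leaves the contrast within one sex to this single control, the log2 fold changes were -0.21 for Pnlip, 0.052 for Clps, -0.098 for Pnliprp1, -0.27 for Pnliprp2, -0.24 for Cel and -0.22 for Pla2g1b, and none was called, where 0.16% of genes were called and 0.107% as lower. DESeq2's Wald test called 3 of the 6 as lower, Cel (adjusted p 0.0124), Pnliprp2 (adjusted p 0.0214) and Pla2g1b (adjusted p 0.035), where it called 4.53% of the tested genes in all and 2.55% as lower.

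**Figure D2:**
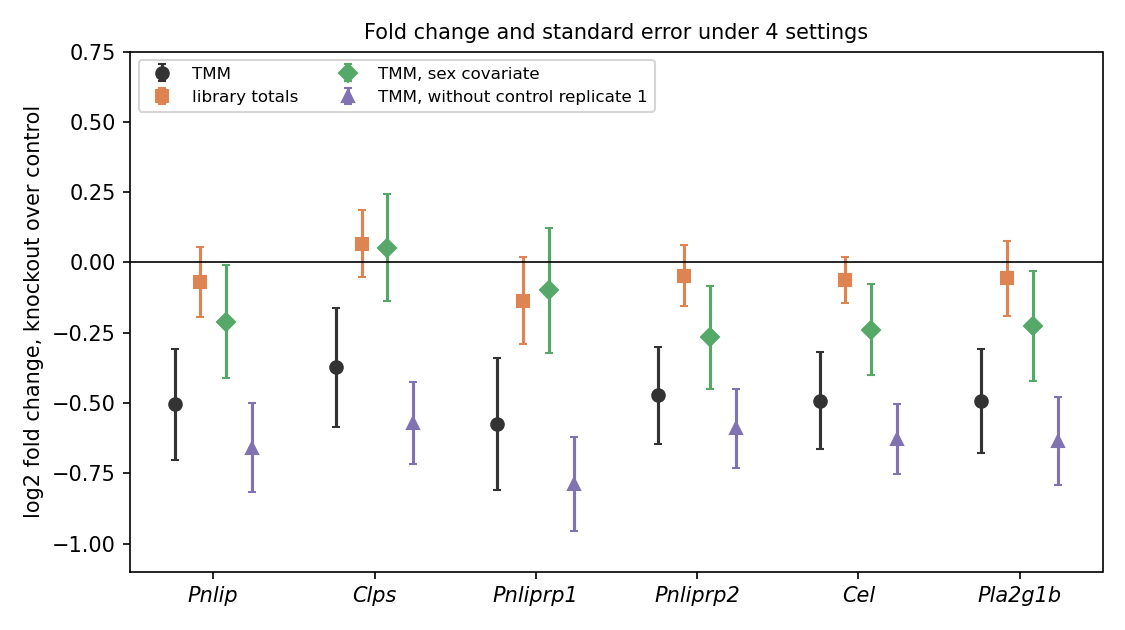
Points are log2 fold changes of knockout over control with their standard errors, for the TMM-scaled test, library totals, a sex covariate, and the test without control replicate 1. The 6 genes lie near 0 with library totals (-0.14 to 0.067) and furthest below it without control replicate 1 (-0.79 to -0.57).

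The proportions of the enzymes to one another were compared within each library, as counts per 100 counts of Pnlip. Pnliprp1 came to 38.1 ± 10.1 (SD, n = 3) in control and 36.6 ± 8.54 in knockout. For Pnliprp2 the values were 6.41 ± 1.15 and 6.49 ± 0.833, and for Cel 62.6 ± 6.81 and 63.2 ± 9.92. Clps came to 33.6 ± 4.68 in control and 37.5 ± 8.71 in knockout, and Pla2g1b to 1.47 ± 0.0848 and 1.48 ± 0.173. In all 5 ratios the groups overlapped and the difference of the means was smaller than the spread between replicates. The log2 differences, knockout minus control, ran from -0.054 for Pnliprp1 to 0.14 for Clps, and the exact two-sided permutation test over libraries gave p from 0.7 to 1.0, or 1.0 when adjusted over the 5 ratios. With 3 libraries against 3 that test cannot go below 0.1, so it does not show that the proportions were equal.

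**Figure D3:**
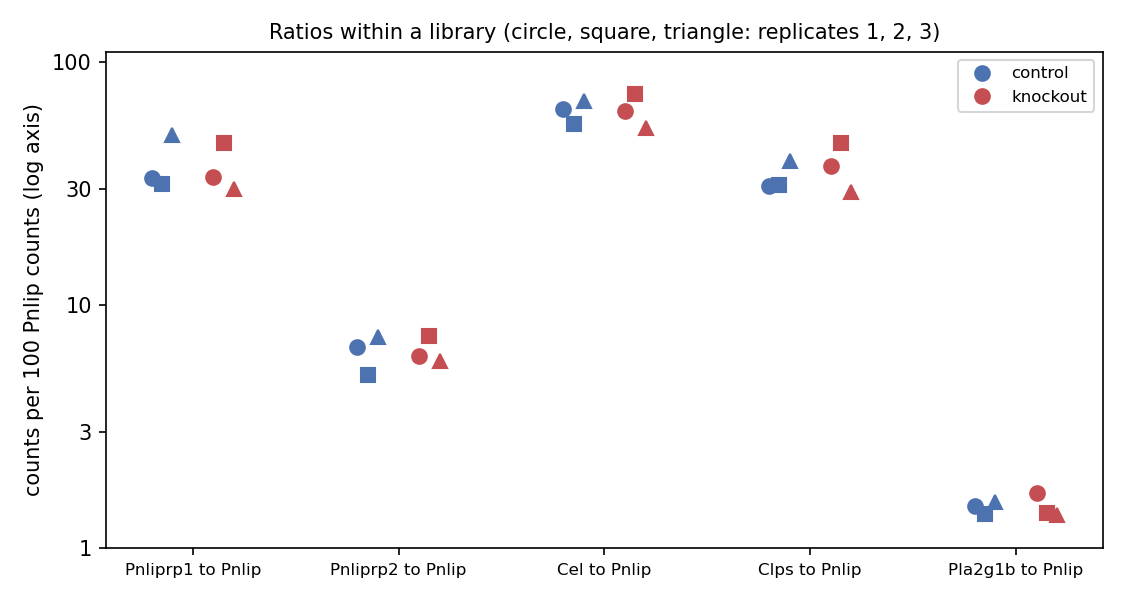
Points are counts of each gene per 100 Pnlip counts in the same library, on a log axis, for control (blue) and knockout (red). Control and knockout points overlap for each of the 5 genes, as with Cel at 55.2 to 68.7 in control and 53.5 to 73.3 in knockout.

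The 6 genes did not move in step across libraries in every pair. Pearson's r of log2 CPM over the 6 libraries, which share their scaling, ran from 0.683 for Clps with Pla2g1b to 0.955 for Pnliprp2 with Cel. Pnlip tracked Pla2g1b (r = 0.940) more closely than colipase (r = 0.693) or Pnliprp1 (r = 0.692), and Clps tracked Pnliprp1 (r = 0.940) and Cel (r = 0.909). The controls show this, as Pnlip and Pla2g1b were highest in replicate 2 and Pnliprp1 and Pnliprp2 in replicate 3.

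Among 532 other protein-coding genes with a mean of at least 50 CPM, the profile most like that of Pnlip was that of Ywhae, a 14-3-3 protein (r = 0.980), followed by the kallikrein Klk1 (r = 0.956) and Cd164 (r = 0.954). Nearest to Pnliprp1 were Sars, a seryl-tRNA synthetase (r = 0.995), the carboxypeptidase Cpa1 (r = 0.994) and Ahcy (r = 0.991). For Pnliprp2 they were Smpdl3a (r = 0.993), lipoprotein lipase Lpl (r = 0.991) and Serpini2 (r = 0.990), and for Cel they were Tent5c (r = 0.991), Rnase4 (r = 0.989) and Tmem59 (r = 0.989). The profile of Clps was most like those of Gnmt (r = 0.993), the regenerating protein Reg1 (r = 0.987) and Reep5 (r = 0.983), and that of Pla2g1b most like those of the chymotrypsinogen Ctrb1 (r = 0.973), Ywhae (r = 0.952) and Pnlip (r = 0.940). These are descriptions over 6 libraries, and none of the genes named here passed the edgeR test between the groups without the replicate block.

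The 6 genes lay in the middle of the range of secreted digestive genes. Of 27 proteases, amylases and companion proteins, 23 had a negative log2 fold change and the median was -0.55, against -0.49 for the 6 fat-digesting genes. With library totals these medians were -0.12 and -0.059. Among all 33, ordered from the lowest log2 fold change, Pnliprp1 was 13th and Clps 23rd, with the other 4 between them. The only gene of the 27 that was called in the TMM-scaled test is the trypsinogen Prss3 (edgeR adjusted p 0.00166). It rose from a mean of 114 CPM ± 27.3 (SD, n = 3) to one of 836 CPM ± 179. Its counts and those of the other trypsinogens named here are uncertain among near-identical trypsinogens. The replicate block called 5.99% of all tested genes, and 2.58% as lower. With it 2 of the 27 were called higher, Prss3 and the trypsinogen Try5 (block log2 fold change 0.85). Called lower with it were 6, the trypsinogen Try10 (-0.91), the elastase Cela2a (-0.99), the carboxypeptidase Cpb1 (-0.76), the trypsin inhibitor Spink1 (-0.72), the zymogen granule protein Gp2 (-1.09) and Cuzd1 (-1.46). Under library totals Prss3 (3.32), Prss1 (2.45) and Try5 (1.25) were called higher and Cela2a (-0.57) and Cela3a (-2.52) lower, where the median of all tested genes was 0.43.

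**Figure D4:**
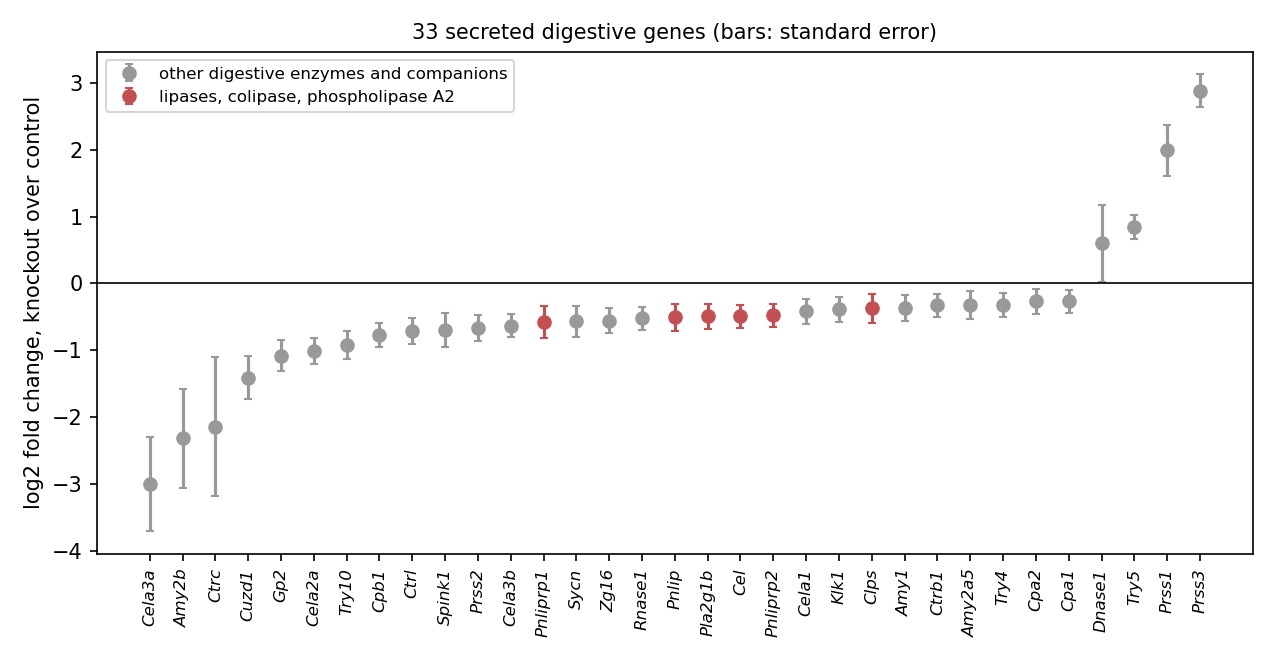
Points are log2 fold changes of knockout over control with standard errors for 33 secreted digestive genes in rising order, with the 6 fat-digesting genes in red. The red points lie together between -0.58 and -0.37, in the middle of the row.

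Fat-splitting genes outside the secreted pancreatic set were far less abundant, and none was called in the TMM-scaled test without the replicate block. Of 11 other members of the pancreatic and acid lipase families, 5 were tested, none was called, and the median log2 fold change was 0.36. A further 5, Lipi, Lipf, Lipk, Lipm and Lipn, had no counts in any library. Lpl, lipoprotein lipase, which frees fatty acids from circulating lipoproteins, was the most abundant, with 69.3, 76.9 and 118.8 CPM in the controls, replicates 1 to 3 in order, against 34.5, 48.3 and 47.1 CPM in the knockouts. All knockouts lay below all controls, and the log2 fold change was -1.03 (SE 0.23), with an edgeR adjusted p of 0.0803, or 0.00474 with the replicate block. Lpl was lower under library totals too, by a log2 fold change of -0.60. Liph, a phosphatidic acid-selective phospholipase, had a control mean of 3.03 CPM ± 1.31 (SD, n = 3) and a knockout mean of 4.44 CPM ± 0.862, with overlapping groups.

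Among 11 genes for other secreted phospholipases A2 and their receptor, 5 were tested and none was called, with a median log2 fold change of 0.45. Pla2g12a was the most abundant, at 14.4 CPM ± 1.56 (SD, n = 3) in the controls against 13.8 CPM ± 1.11 in knockout. Pla2r1, the receptor that binds secreted phospholipases A2 including that of Pla2g1b, was counted 31, 7 and 6 times in the controls, against 75, 45 and 61 times in the knockouts. Its groups did not overlap, and the log2 fold change of 1.71 (SE 0.58) had an edgeR adjusted p of 0.198, or 0.031 with the replicate block.

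Intracellular lipolysis, which acts on lipid droplets and membrane lipids, was represented by 18 genes, of which 14 were tested and none was called, with a median log2 fold change of -0.12. Ddhd2, a triglyceride and phospholipid hydrolase, had 11.9, 12.8 and 11.9 CPM in the controls, against 17.9, 21.1 and 16.8 CPM in the knockouts. All its knockouts lay above all controls, and its log2 fold change was 0.61 (SE 0.13), at an edgeR adjusted p of 0.0718, or 0.0233 with the replicate block. Dagla, a diacylglycerol lipase, had a control mean of 56.5 CPM ± 15.1 (SD, n = 3) and a knockout mean of 46.02 CPM ± 7.20, and Mgll, monoglyceride lipase, 25.8 CPM ± 1.49 and 22.9 CPM ± 3.23, with overlapping groups in both. Under library totals the median of all tested genes was 0.43, and 94.9% of the genes called were higher. With that scaling the signs of Dagla (0.14) and Mgll (0.25) turned positive, though both stayed below this median. Ddhd2 (1.02, adjusted p 0.0207 in edgeR) and the droplet protein Plin3 (0.45, adjusted p 0.0437) were called higher, Plin3 at a value close to the median.

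Of 13 genes of triglyceride synthesis 11 were tested and none was called, and the median log2 fold change was 0.07. Gpam, which starts the pathway, had a control mean of 29.3 CPM ± 5.74 (SD, n = 3) and a knockout mean of 30.7 CPM ± 7.10, and Agpat3 21.2 CPM ± 2.78 and 22.1 CPM ± 1.77. Dgat2, which adds the last fatty acid, had 1.32, 6.04 and 5.53 CPM in the controls, against 1.02, 1.63 and 0.751 CPM in the knockouts. Control replicate 1 lay within the knockouts, and the log2 fold change of -1.92 (SE 0.59) had an edgeR adjusted p of 0.181, or 0.0486 with the replicate block. Under library totals the acyltransferases Agpat2 (0.81, adjusted p 0.0282 in edgeR) and Agpat3 (0.48, adjusted p 0.0469) were called higher, and Dgat2 (-1.43) was not called. The median of all tested genes was 0.43 with that scaling, close to the value of Agpat3.

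**Figure D5:**
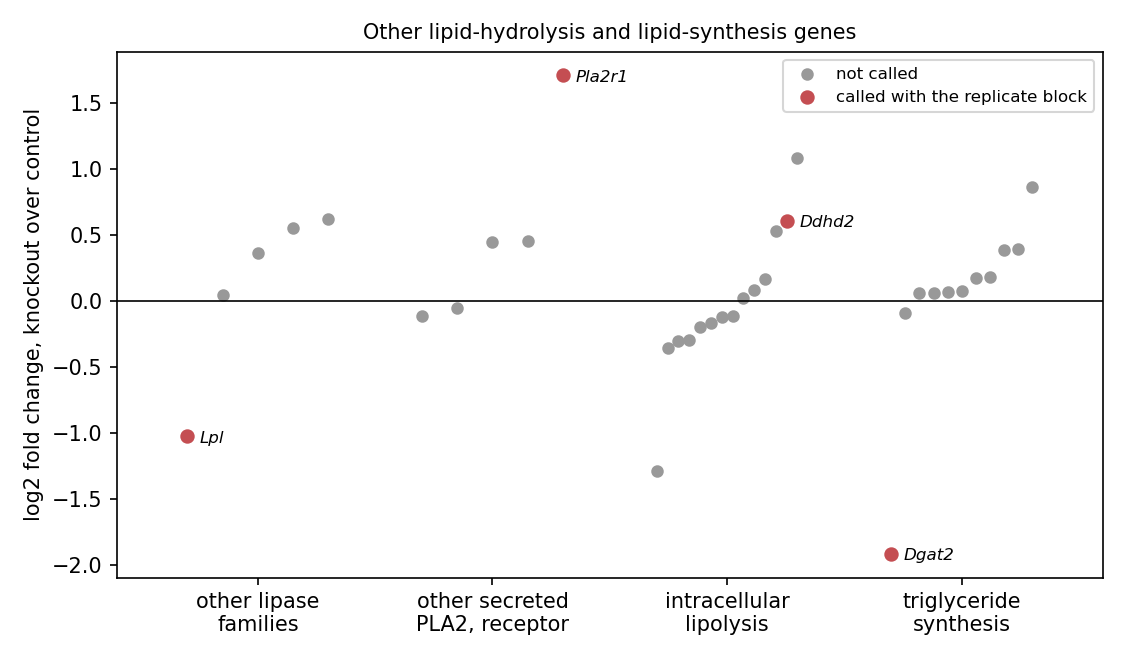
Each point is the log2 fold change of knockout over control of a tested gene in 4 lists of lipid genes, and red marks genes called with the replicate block. The values are from the TMM-scaled test, in which none of these genes was called without the block, and the red points are Lpl (-1.03), Pla2r1 (1.71), Ddhd2 (0.61) and Dgat2 (-1.92).

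Of 14 transcription factors and hormone receptors that act on acinar enzyme genes none was called, with a median log2 fold change of -0.03. Rbpjl and Ptf1a, which form the acinar PTF1 complex, were called with the replicate block, which called 5.99% of all tested genes. Rbpjl had 183, 279.6 and 179.6 CPM in the controls, against 486, 658 and 369.8 CPM in the knockouts (adjusted p 0.0685 in the edgeR test, 0.00203 with the block), and Ptf1a had 7.43, 14.05 and 10.8 CPM and 5.44, 9.48 and 7.05 CPM (adjusted p 0.374, and 0.046 with the block). Under library totals the log2 fold change of Ptf1a was -0.11 (edgeR adjusted p 0.741) and that of Rbpjl 1.66 (adjusted p 0.0211). The transcription factors Gata4 (0.64) and Gata6 (0.70) were also called higher with that scaling. It put the median of all tested genes at 0.43 and called 11.6% of them, mostly as higher.

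The preparations could hold other cells, and their markers were examined. Of 9 adipocyte markers, Adipoq, Lep and Retn had no counts in any library, and the summed level of the 9 ran from 4.93 to 9.89 CPM in control and from 5.42 to 18.1 CPM in knockout. Fabp4 was the highest of them in each library. The 12 leukocyte markers summed to 156, 37.5 and 24.0 CPM in the controls, against 110.6, 23.6 and 77.5 CPM in the knockouts. The 10 stromal and endothelial markers summed to 151, 34.8 and 49.8 CPM and to 166, 41.4 and 117 CPM. Control replicate 1 was thus the highest control on both lists. With TMM scaling it was also the lowest control for all 6 fat-digesting genes. As a share of gene counts it was the lowest control only in Pnliprp1 (2.50%) and Clps (2.30%). The 10 ductal markers summed to 217 to 249.5 CPM in control and 201 to 298.6 CPM in knockout, the 10 islet markers to 356 to 463 and 245 to 917 CPM, and the 7 hepatocyte markers to 27.7 to 37.1 and 17.9 to 22.7 CPM, with Apoc3 and Fgb at 0 in all libraries. Of these lists a single gene was called in the TMM-scaled test, Ttr, lower in knockout at 14.7 CPM ± 0.208 (SD, n = 3) against 31.02 CPM ± 4.52 (adjusted p 0.0148 in the edgeR test). Under library totals Ttr was not called (-0.68, edgeR adjusted p 0.0593), while Spp1 (1.48), Epcam (0.89) and Alb (1.92) were called higher. That scaling put the median of all tested genes at 0.43, and 94.9% of the genes it called were higher. The replicate block called 5.99% of all tested genes, and 2.58% as lower. With it 4 ductal markers were called higher (Krt7, Spp1, Pkhd1 and Epcam, at block log2 fold changes of 1.15, 1.01, 0.91 and 0.50) and 2 lower (Krt19 and Muc1, at -0.82 and -0.72). The block also called 4 macrophage genes of the leukocyte list higher (C1qa, C1qb, C1qc and Adgre1, at 1.10, 0.93, 1.45 and 2.00). In each of these 4 the groups overlapped. Other genes of that list were not called and went both ways, with Cd68 at 1.18 and Lyz2 at 0.24. Cd74 was at -0.011, Ptprc at -0.56, Ms4a1 at -0.81 and Cd79a at -1.43. Fabp4 (0.72), the islet convertase Pcsk2 (1.03) and albumin Alb (1.42) were called higher with the block as well, and Ttr lower. The part of these cells in the levels of the 6 genes was not tested.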

How the data were processed

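Poly-A RNA libraries of 3 control and 3 Trip12 knockout acinar preparations were deposited by the authors as whole-number counts per gene, one unstranded and 2 by strand. Per the submitters' processing notes STAR 2.7.10a and build GRCm39 (mm39) were used; the annotation is not given in the sources used here. The forward column held 50.1% to 50.3% of stranded counts, so unstranded counts were used. Rows that name no gene (unmapped, multimapped, ambiguous or matching no annotated feature, 36.9% to 45.7% of all reads) stayed out of library sizes. Symbols and lengths came from GENCODE M21 (GRCm38), which named 52133 of the 55414 identifiers.

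Genes passing filterByExpr (13115) were tested with edgeR 4.0.16 in R 4.3.3 (TMM, robust quasi-likelihood fit, all 6 libraries, Benjamini-Hochberg adjustment, called under 0.05), and the code was tested on simulated data. Standard errors are the log2 fold change over the square root of F. DESeq2 1.42.0, limma-voom (limma 3.58.1), other scalings and filters, either strand, a sex covariate from Xist counts, a replicate block and each library left out were alternatives. Deviations of log2 CPM (prior count 2) from group means correlated at 0.63, 0.455 and 0.285 in pairs 1 to 3. Between unlike numbers they ran from -0.496 to 0.21, the highest in control 3 with knockout 2. The replicate block rests on these correlations in the same data and on the numbers in the labels, which do not state a pairing. By Xist, pairs 2 and 3 differ in sex. Calls with the block therefore hold only if the numbers pair the samples. No 2 libraries agreed within sampling noise.

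The 6 genes and all lists were chosen with earlier results of these data known. Named were Trip12, the 6 genes, list genes called with or without the block, the 2 most abundant of each lipid list, and for each of the 6 the 3 genes of most similar profile. Mir6969 and Gm13381 overlap 2 of the 6. Genes of these lists called only with library totals (Plin3, Agpat2, Prss1, Cela3a, Gata4, Gata6) were named after their values were seen. Count intervals cover counting error only, since reads carry no molecular identifiers.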

Additional observations from a re-analysis of the deposited data

Results flagged for a closer look

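Reads that mapped but matched no annotated feature, which no comparison above uses, had a mean share of 2.01% ± 0.151 (SD, n = 3) in knockout and 1.08% ± 0.216 in control. The counts do not tell reads in introns from reads between genes. The 3 knockouts lay above the 3 controls, which brought this signal to attention. These reads were counted to none of the 6 genes.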

How the results depend on the processing

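Of 114 alternative values for the 6 genes (19 settings each), 107 kept their direction and stayed uncalled. Another 5 became called: with DESeq2 Cel (-0.51), Pnliprp2 (-0.49) and Pla2g1b (-0.52), and without control replicate 1 Cel (-0.63) and Pnliprp1 (-0.79). Sex and genotype are fully confounded in the fit without control replicate 1. Clps turned positive in 2, with library totals (0.067) and with the sex covariate (0.0523). The cause was not tested. Leaving out each library gave ranges of -0.66 to -0.35 for Pnlip, -0.79 to -0.36 for Pnliprp1, -0.59 to -0.36 for Pnliprp2, -0.63 to -0.43 for Cel, -0.57 to -0.28 for Clps and -0.63 to -0.39 for Pla2g1b. The replicate block called none of the 6, with log2 fold changes of -0.49, -0.55, -0.47, -0.48, -0.35 and -0.49 in the order Pnlip, Pnliprp1, Pnliprp2, Cel, Clps, Pla2g1b.

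The number of genes called, 124 (49.2% higher), was 1519 with library totals (94.9% higher), 850 without a filter, 210 where a minimum of 10 counts was asked of each library, 594 with DESeq2, 785 with the replicate block, 21 with the sex covariate and 20 to 461 when each library was left out. The call of Trip12 was lost with library totals (-0.49), with the sex covariate (-1.05) and in 5 of the 6 fits without a library, where its log2 fold change was -0.98 to -0.84, against -0.89 with all libraries.

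The small log2 ratios to Pnlip changed sign when single libraries were left out, with ranges of -0.24 to 0.15 for Pnliprp1, -0.12 to 0.14 for Pnliprp2, -0.10 to 0.12 for Cel, -0.0285 to 0.31 for Clps and -0.0884 to 0.0609 for Pla2g1b. The summed share of the 6 genes differed by -0.726 percentage points, knockout minus control, and by -1.21 to -0.408 points without single libraries. With all reads, mapped to genes or not, as the denominator, the direction reversed and the difference was 0.583 points. Depth limits none of the 6 genes, which had at least 28508 counts in every library.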
